A study of Mus musculus with 3 samples.

Results

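Among the 1881 mouse miRNAs on the array, 7 were followed here because they are often named as stable in serum or are used as references when vesicle RNA is quantified: mmu-miR-423-3p, mmu-miR-423-5p, mmu-miR-320-3p, mmu-miR-484, mmu-miR-191-5p, mmu-miR-193b-3p and mmu-miR-193b-5p. They were taken by name and are read by 18 of the 4415 mouse miRNA probes. The study measured miRNAs of exosomes, small vesicles released by cells, from mesenchymal stromal cells (MSCs) of mouse bone marrow. The cells came from male wild type C57BL/6 mice aged 4 to 6 weeks, were primary cultures at passages 3 to 6, and were grown in medium with 10% fetal bovine serum. Vesicles were collected from the supernatant after 24 h in 3 conditions: normoxia (N-Exo), hypoxia (H-Exo), and hypoxia + GW4869 (H+G-Exo). GW4869 inhibits neutral sphingomyelinase, an enzyme that takes part in vesicle budding, and there was no group with GW4869 in normoxia. The labels name 10 dishes, whose link to each array is not set out here. The oxygen level, the dose of GW4869 and whether animals were pooled were not stated in the labels.

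Each group had 1 array, although the study's design text speaks of 3 samples of each kind. No difference below therefore has a replicate check, no test between conditions was possible, and no p-value is given. The error printed with a signal is the SD over spots of the same probe on 1 array. The error printed with a log2 difference is the standard error (SE) over spots. Both cover the array's own spread and not that between cultures. The number of arrays limits the precision. All 3 arrays lay on 1 slide and had 1 scan time.

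A miRNA is cut from a hairpin precursor, which can give a mature RNA from each arm, named 5p and 3p. The mature RNA guides an Argonaute protein to messenger RNAs, mainly through its seed, a short stretch near its 5′ end. In serum, miRNAs are protected from RNases inside vesicles or by bound Argonaute, and a reference miRNA is one whose level is taken as constant so that others can be read against it. The hairpins of miR-320 and miR-484 are known to be made without the nuclease Drosha, while miR-191, miR-193b and miR-423 come from ordinary Drosha-cut precursors.

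The mature sequences are shown because the seed sets which messages a miRNA can bind and the 3′ end is what the array probes read. RefSeq's table for GRCm38.p6 held 6 of the 7 members, written here 5′ to 3′ with the seed (bases 2 to 8) in capitals.
mmu-miR-423-5p: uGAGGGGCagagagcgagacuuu
mmu-miR-423-3p: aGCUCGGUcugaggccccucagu
mmu-miR-484: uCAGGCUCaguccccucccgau
mmu-miR-191-5p: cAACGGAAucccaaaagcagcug
mmu-miR-193b-5p: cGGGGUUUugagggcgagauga
mmu-miR-193b-3p: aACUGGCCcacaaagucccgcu
mmu-miR-193a-3p: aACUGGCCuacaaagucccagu
The last of these is not a member. It is printed because it has the seed of mmu-miR-193b-3p and 19 of its 22 bases, with the substitutions C9U, G20A and C21G, counted from the 5′ end of mmu-miR-193b-3p. The 6 members printed have 6 different seeds. mmu-miR-320-3p was not in the table and is named only.

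On GRCm38.p6, mmu-miR-423-3p lies at chr11:77078086-77078108 and mmu-miR-423-5p at chr11:77078122-77078144, both on the minus strand and within the span of Nsrp1, a gene for a splicing regulator. mmu-miR-191-5p lies at chr9:108568325-108568347 on the plus strand within the span of Dalrd3, and Mir425 begins 384 bases after Mir191. mmu-miR-193b-5p (chr16:13449533-13449554) and mmu-miR-193b-3p (chr16:13449570-13449591) lie on the plus strand within the spans of the long noncoding RNAs Gm32817 and Gm53058, with Mir365-1 4238 bases further on. mmu-miR-484 lies at chr16:14159630-14159651 on the plus strand, within no other gene's span in that table.

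To make the arrays comparable, intensities were scaled to the 75th percentile of the probes that all 3 arrays detected. It was 417 intensity units for N-Exo, 235 for H-Exo and 469 for H+G-Exo. A scaled signal of 1 is therefore the level of a fairly bright miRNA, and since the H-Exo array was dimmer as a whole, a miRNA can keep its scaled signal while its intensity falls. Detection of a probe needed the scanner software's mark of being well above background on more than 50% of spots. Each miRNA is given by its brightest probe, signals under a floor of 0.0653 were set to it before logarithms, and a change was called for a miRNA that both arrays detected and whose 2 signals stood 2-fold or more apart by more than 2 standard errors over spots. "Rose" and "fell" are used of called changes alone. Levels of different miRNAs are not ranked against each other, because each has its own probe.

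By this rule 685 miRNAs were detected for N-Exo, 586 for H-Exo and 675 for H+G-Exo, among them 6, 5 and 6 of the 7 members. mmu-miR-423-5p, mmu-miR-423-3p, mmu-miR-320-3p and both arms of miR-193b were detected on all 3 arrays. No member spot was saturated. The members did not behave as one group. mmu-miR-423-5p and mmu-miR-320-3p kept nearly the same scaled signal on all 3 arrays, mmu-miR-423-3p was several times higher in H+G-Exo, the arms of miR-193b moved apart, mmu-miR-484 lay near the limit of detection, and mmu-miR-191-5p was not detected.

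**Figure D1:**
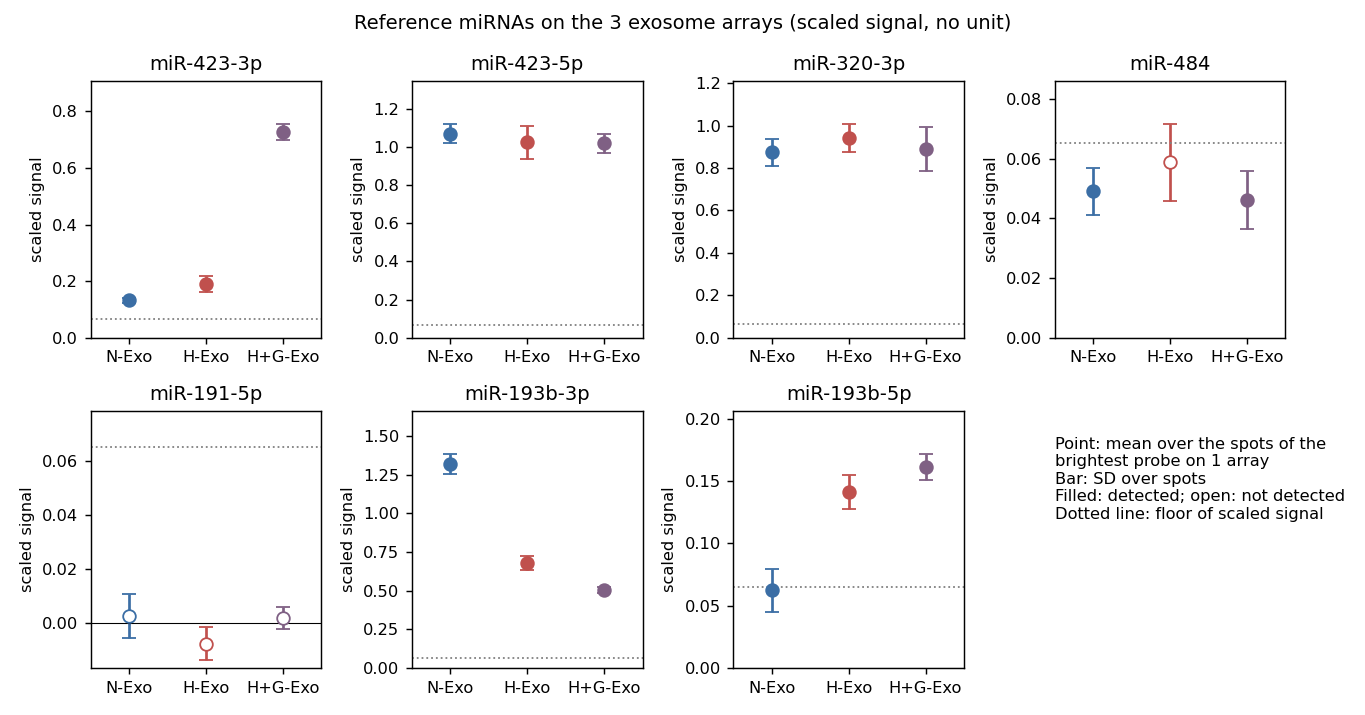
Scaled signal of each of the 7 members (vertical axis, linear, with its own range in each panel; 1 is the array's 75th percentile) on the N-Exo, H-Exo and H+G-Exo arrays. Points are means and bars SDs over spots of 1 probe, open points are not detected and the dotted line is the floor of 0.0653; mmu-miR-423-3p stands at 0.132, 0.190 and 0.727, while mmu-miR-423-5p stays between 1.02 and 1.07.

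mmu-miR-423-5p, much studied as a plasma marker in heart failure, had a scaled signal of 1.07 ± 0.0510 (SD over 15 spots) for N-Exo, 1.02 ± 0.0845 for H-Exo and 1.02 ± 0.0509 for H+G-Exo. The 3 means with their SDs overlapped. In log2, H-Exo differed from N-Exo by -0.06 ± 0.035 (SE over spots), H+G-Exo from H-Exo by -0.01 ± 0.036, and H+G-Exo from N-Exo by -0.07 ± 0.026. Its unscaled intensity was 447 for N-Exo, 241 for H-Exo and 478 for H+G-Exo, so that it moved with the brightness of the whole array. Its second probe, which is 1 base shorter, read 101, 53.6 and 94.2 in the same order.

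mmu-miR-320-3p, a member of the serum reference panels whose precursor bypasses Drosha, had a scaled signal of 0.874 ± 0.0651 for N-Exo, 0.943 ± 0.0656 for H-Exo and 0.889 ± 0.103 for H+G-Exo (SD over spots). The log2 differences were 0.11 ± 0.038 for H-Exo against N-Exo, -0.09 ± 0.050 for H+G-Exo against H-Exo and 0.03 ± 0.051 for H+G-Exo against N-Exo, none of which reached the 2-fold threshold. Its 12-base probe gave a somewhat wider spread, at 0.399, 0.442 and 0.519.

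The 3 comparisons share arrays, so each member's own values are given for each and the comparisons are not counted as separate support. Over the 3 arrays, the highest scaled signal of mmu-miR-423-5p was 1.05-fold its lowest and that of mmu-miR-320-3p was 1.08-fold. Of the 562 miRNAs detected on all 3 arrays, these were the ranges of rank 2 and rank 4 from the narrowest, and the median range was 2.08-fold. These ranks depend on the scaling and on the probe. By its shorter probe, each differed most in H+G-Exo against N-Exo, by 1.21-fold for mmu-miR-423-5p and 1.30-fold for mmu-miR-320-3p. Under the 7 scalings tried, the rank of mmu-miR-423-5p ran from 2 to 215 and that of mmu-miR-320-3p from 4 to 195. With no scaling, intensity in H-Exo over that in N-Exo was 0.539 for mmu-miR-423-5p and 0.608 for mmu-miR-320-3p. Dividing both by the same factor leaves their difference as it is, whatever the factor: the change of mmu-miR-320-3p minus that of mmu-miR-423-5p was 0.17 ± 0.052 in log2 for H-Exo against N-Exo, -0.08 ± 0.062 for H+G-Exo against H-Exo and 0.10 ± 0.057 for H+G-Exo against N-Exo. By these brightest probes the pair stayed within 1.13-fold of each other. Their shorter probes lay further apart, by 1.18-fold, 1.33-fold and 1.57-fold in the same order of comparisons, and the means over the probes by 1.15-fold, 1.12-fold and 1.30-fold.

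**Figure D2:**
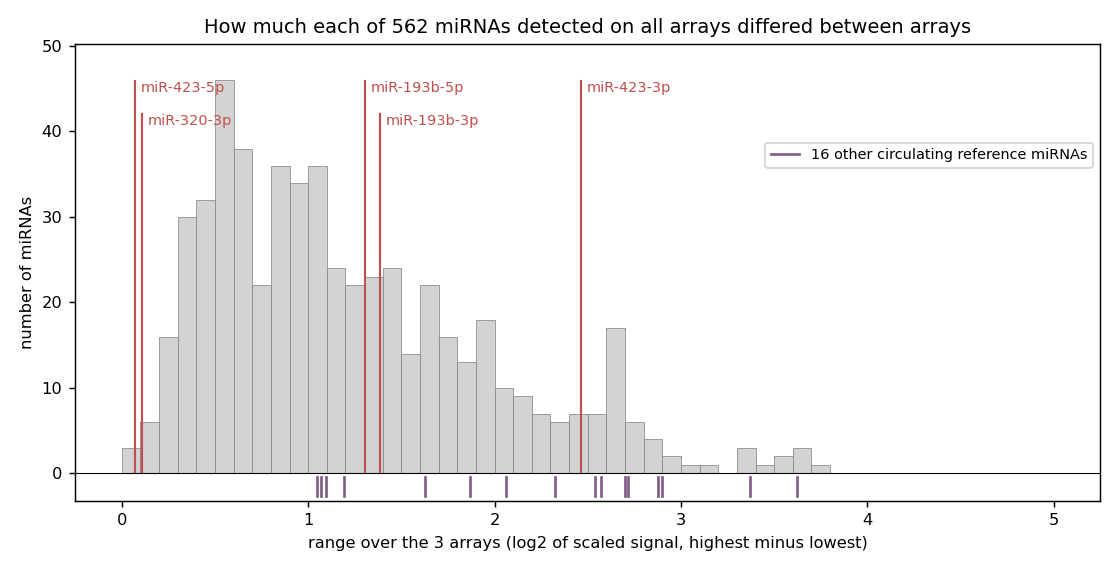
Range over the 3 arrays (highest minus lowest log2 scaled signal, horizontal axis) for the 562 miRNAs detected on all 3, with the number of miRNAs on the vertical axis. Red lines mark the 5 members so detected and purple ticks 16 other circulating reference miRNAs; mmu-miR-423-5p at 0.07 and mmu-miR-320-3p at 0.11 lie at the narrow end and mmu-miR-423-3p at 2.46 far out, against a median of 1.06.

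mmu-miR-423-3p, the other arm of the same hairpin, did not follow mmu-miR-423-5p. Its scaled signal was 0.132 ± 0.0103 for N-Exo, 0.190 ± 0.0275 for H-Exo and 0.727 ± 0.0293 for H+G-Exo (SD over 7 spots). The H+G-Exo array stood far above the others, with unscaled spot intensities from 323 to 357. Separate unscaled spots are not read as a difference here, because the H+G-Exo array was brighter than the H-Exo array as a whole. Spots of mmu-miR-423-5p, which was not called, were also apart, at 203 to 269 in H-Exo and 435 to 519 in H+G-Exo. The mmu-miR-423-3p spots of N-Exo, from 48.6 to 59.8, and of H-Exo, from 33.4 to 52.2, overlapped each other. mmu-miR-423-3p rose 3.83-fold in H+G-Exo against H-Exo (log2 1.94 ± 0.082, SE over spots) and 5.52-fold against N-Exo (log2 2.46 ± 0.048). In H-Exo against N-Exo it differed by 0.53 ± 0.090, short of the threshold, and the direction turned without scaling, where H-Exo over N-Exo was 0.811. Ordered by log2 difference, it was number 9 of 566 miRNAs when H+G-Exo was set against H-Exo and number 4 of 606 against N-Exo. Both of its rises were called under all 7 scalings. They were smaller, at 1.02 and 1.45, with normexp, another background correction, run with 50 intensity units added to every spot. Such an addition by itself makes log2 differences smaller, most for dim probes. With the software's total over all probes of the miRNA they were 1.37 and 1.40. Both rises were called under these alternatives too.

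The 4 probes for mmu-miR-423-3p are shown because they differ by 1 base at a time and only the longer ones gave a signal. They are written 5′ to 3′, with the bases added to the shortest probe in capitals.
mmu-miR-423-3p, 11-base probe: actgaggggcc
mmu-miR-423-3p, 12-base probe: actgaggggccT
mmu-miR-423-3p, 13-base probe: actgaggggccTC
mmu-miR-423-3p, 14-base probe: actgaggggccTCA
They are complementary to bases 13 to 23, 12 to 23, 11 to 23 and 10 to 23 of the mature miRNA, so none reads the seed. The 13-base probe had mean intensities of 55.0 for N-Exo, 44.6 for H-Exo and 341 for H+G-Exo. The 14-base probe gave 43.8, 37.3 and 244 in the same order, and both were detected on all 3 arrays. The 11-base probe (11.5, 7.62 and 12.3) and the 12-base probe (7.42, 4.68 and 14.1) had no spot well above background on any array. The high value in H+G-Exo was thus read by both detected probes. The stretches read by the 11-base and 12-base probes also occur in mmu-miR-7224-5p, whereas those of the 13-base and 14-base probes occur in no other mature mouse miRNA of the table. mmu-miR-7224-5p itself had scaled signals of 0.0621 in N-Exo, 0.0719 in H-Exo, where it was not detected, and 0.0600 in H+G-Exo.

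**Figure D3:**
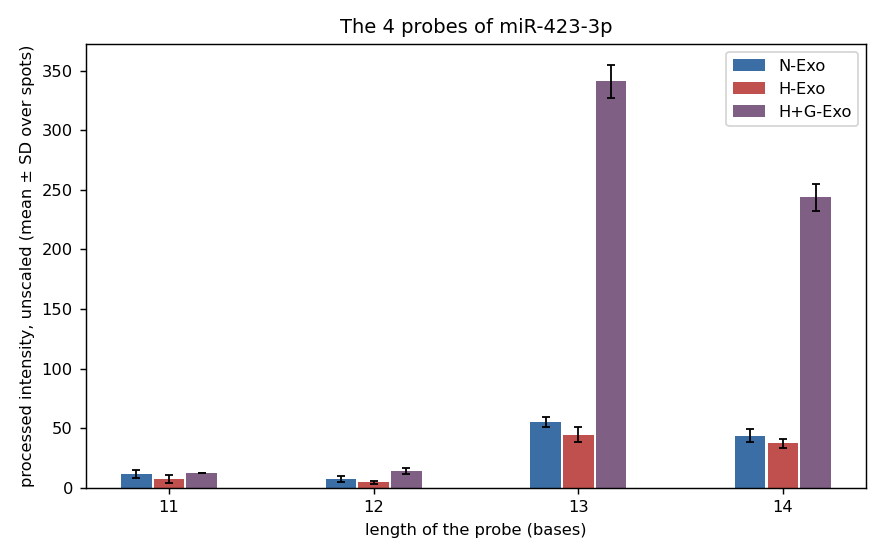
Mean unscaled intensity (vertical axis) of the 4 probes for mmu-miR-423-3p on each array, set out by length in bases (horizontal axis); bars start at 0 and error bars are SDs over spots. The 13-base and 14-base probes reach 341 and 244 in H+G-Exo and stay at or under 55.0 elsewhere, while the 11-base and 12-base probes stay under 15 on every array.

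Both arms of miR-193b, a miRNA known for its part in brown fat differentiation and for repressing cell cycle genes, were detected on every array and differed from N-Exo in opposite directions. mmu-miR-193b-3p had a scaled signal of 1.32 ± 0.0661 for N-Exo, 0.677 ± 0.0444 for H-Exo and 0.504 ± 0.0217 for H+G-Exo (SD over 14 or 15 spots). N-Exo was the highest and H+G-Exo the lowest of the 3. It fell 2.61-fold in H+G-Exo against N-Exo (log2 -1.39 ± 0.025). It was 1.95-fold lower for H-Exo against N-Exo (-0.96 ± 0.031), just short of the threshold, and under the other 6 scalings the same difference passed it, at -1.06 to -1.81. H+G-Exo against H-Exo gave -0.43 ± 0.030, which was not called and ran from -0.43 to 0.57 over the scalings. Its 16-base probe gave -1.08, -1.44 and -0.36 for H-Exo against N-Exo, H+G-Exo against N-Exo and H+G-Exo against H-Exo.

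mmu-miR-193b-5p had a scaled signal of 0.0623 ± 0.0172 for N-Exo, 0.141 ± 0.0134 for H-Exo and 0.161 ± 0.0104 for H+G-Exo (SD over 13 to 15 spots). The N-Exo value lies under the floor, with 12 of 15 spots well above background, so the differences from it are counted from the floor. mmu-miR-193b-5p rose 2.16-fold in H-Exo against N-Exo (log2 1.11 ± 0.10) and 2.47-fold in H+G-Exo against N-Exo (1.30 ± 0.10). The first of these was called under 2 of the 7 scalings and ranged from 0.33 to 1.11, and the second was called under 7 of 7. With normexp both calls were lost, at 0.27 and 0. The 50 intensity units added to every spot there exceed the unscaled intensities of mmu-miR-193b-5p in N-Exo and H-Exo. Unscaled intensities were 26.0 for N-Exo, 33.2 for H-Exo and 75.6 for H+G-Exo. H+G-Exo against H-Exo gave 0.19 ± 0.045, which was not called, although 2 of the 7 scalings called it, up to 1.19.

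The arms of a hairpin come from the same precursor and were read on the same arrays. The change of the 3p arm minus that of the 5p arm does not depend on the factor by which an array is divided, apart from values at the floor. For miR-193b it was -2.07 ± 0.11 in log2 (SE over spots) in H-Exo against N-Exo, a 4.21-fold unequal change and the largest of the 56 hairpins with both arms measured under names that differ in the arm alone. With normexp it was -1.03, or 2.04-fold, number 5 of 56. It was number 5 of 90 with the software total and number 10 of 90 with the deposited value table. Against N-Exo, H+G-Exo gave -2.69, or 6.46-fold, the second largest of 63, and with normexp -1.15, or 2.23-fold, number 16 of 64. There it was number 5 of 99 with the software total and number 14 of 99 with the deposited value table. Against H-Exo, H+G-Exo gave -0.62, or 1.53-fold, number 28 of 52. For miR-423 it was 0.59 in H-Exo against N-Exo (1.51-fold, number 17 of 56). With GW4869 the arms of miR-423 differed more, by 1.94 against H-Exo (3.85-fold, number 5 of 52) and by 2.54 against N-Exo (5.80-fold, number 4 of 63). Both were smaller with normexp, at 1.02 (number 7 of 52) and 1.51 (number 6 of 64), and with the software total, at 1.10 (number 26 of 82) and 1.39 (number 27 of 99). Unequal arm changes of at least 2-fold were found in 16.1% of hairpins in H-Exo against N-Exo, 36.5% from H-Exo to H+G-Exo and 49.2% in H+G-Exo against N-Exo. An unequal change was thus found in more than 1 of 3 hairpins where GW4869 was present, so that the presence of one in miR-423 or miR-193b there is near the background. The 2 arms of miR-193b were called in opposite directions in H+G-Exo against N-Exo, as happened in 2 of those 63 hairpins.

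**Figure D4:**
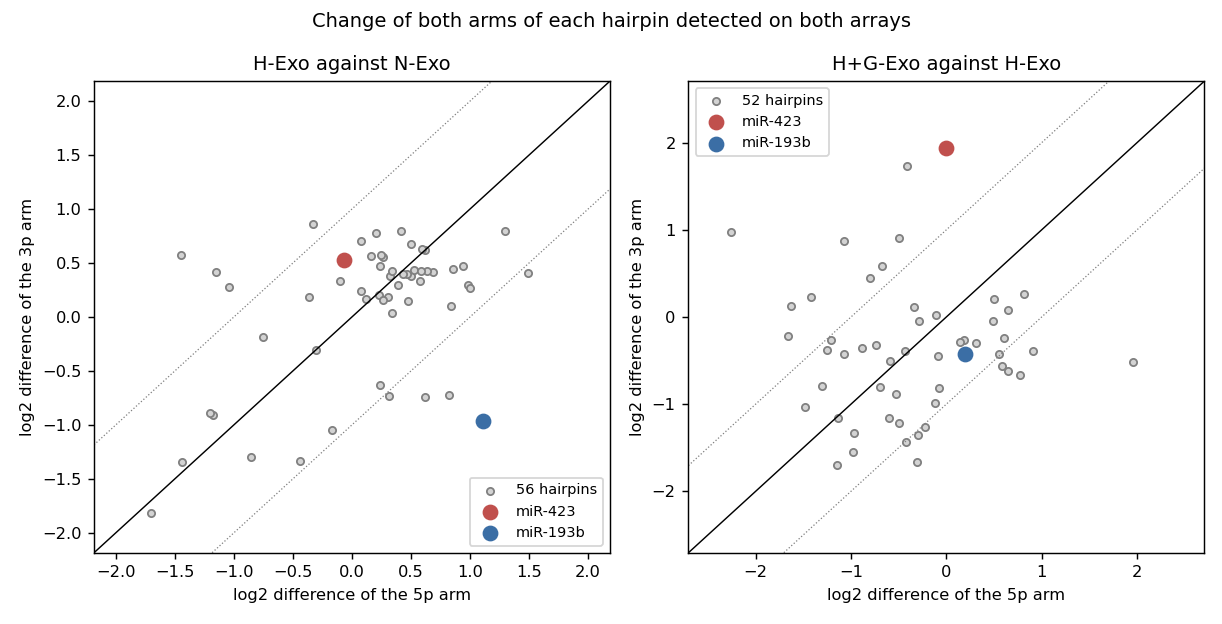
Log2 difference of the 3p arm (vertical axis) against that of the 5p arm (horizontal axis) for hairpins with both arms measured, in H-Exo against N-Exo (56 hairpins) and H+G-Exo against H-Exo (52). Each point is 1 hairpin, dotted lines mark a 2-fold unequal change, and the members are named: miR-193b lies under the lower line in the first comparison and miR-423 above the upper line in the second.

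mmu-miR-484, made like miR-320 without Drosha, lay at the edge of what the array could read. Its scaled signal was 0.0491 ± 0.0079 in N-Exo and 0.0461 ± 0.0098 in H+G-Exo, each with 10 of 15 spots well above background. In H-Exo it was not detected, with 1 of 14 spots well above background and a mean of 0.0588 ± 0.0130. All 3 values lie under the floor and have no order. Unscaled intensities were 20.5, 13.8 and 21.6.

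mmu-miR-191-5p, which is widely used as a reference in blood and tissue, was not detected on any array by any of its 4 probes. No spot of theirs was well above background, and the probe means ran from -5.82 to 3.28 intensity units after the software's background subtraction. The array thus gave no level for it, and mmu-miR-191-5p could not be read as a reference here. Its hairpin partner mmu-miR-191-3p was detected on all 3 arrays, at scaled signals of 0.077, 0.081 and 0.057 in N-Exo, H-Exo and H+G-Exo. The H+G-Exo value lies under the floor and the others just above it, so no order is read from them.

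In H-Exo against N-Exo, 5 members were measured on both arrays and 1 was called, mmu-miR-193b-5p, higher. Over all 582 miRNAs measured there, 14.9% were called, 4.3% higher and 10.7% lower. Against H-Exo, H+G-Exo had 1 of 5 members called, mmu-miR-423-3p, where 32.3% of 566 miRNAs were called, 6.18% higher and 26.1% lower. Against N-Exo, H+G-Exo had 3 of 6 members called, with mmu-miR-423-3p and mmu-miR-193b-5p higher and mmu-miR-193b-3p lower, where 44.4% of 606 miRNAs were called, 18.3% higher and 26.1% lower. Which member is called from N-Exo to H-Exo depends on the scaling: of the 7 scalings, 1 called mmu-miR-193b-5p alone, 5 called mmu-miR-193b-3p alone, as lower, and 1 called both. The balance of all miRNAs moved too. Over the scalings, the number called higher ran from 1 to 25 and lower from 62 to 136 for H-Exo against N-Exo. For H+G-Exo against H-Exo the 35 higher and 148 lower turned to 185 higher and 7 lower with no scaling. For H+G-Exo against N-Exo the numbers ran from 111 to 169 higher and from 119 to 158 lower. Nothing is read from shares of so few members against those of the array. At a lower threshold of 1.5-fold, 2, 1 and 3 members passed in these comparisons, against 40.9%, 55.8% and 62% of all miRNAs. By their brightest probes, mmu-miR-423-5p and mmu-miR-320-3p had differences within 0.15 in log2 in each comparison. mmu-miR-484, which is under the floor, is left aside. Of all miRNAs, 9.62%, 10.1% and 17.7% were as close, and these shares do not leave aside miRNAs under the floor on both arrays. The median log2 difference of the measured members was 0.11, -0.01 and 0.01 in the 3 comparisons, against 0.34, -0.42 and -0.05 over all miRNAs. The members nonetheless spanned 2.07, 2.36 and 3.85 in log2 from the lowest to the highest of them.

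**Figure D5:**
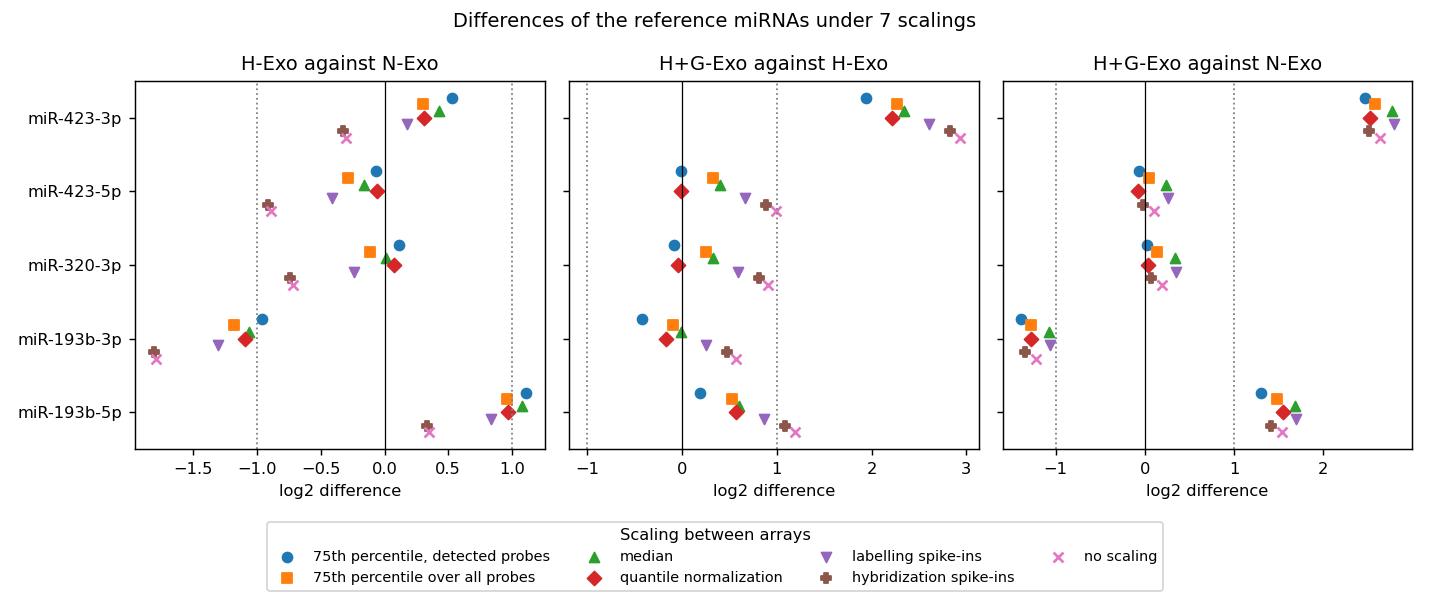
Log2 difference (horizontal axis) of the 5 members (vertical axis) detected on all 3 arrays under 7 ways of scaling the arrays, in each of the 3 comparisons; dotted lines mark 2-fold. In H+G-Exo against N-Exo each member keeps its side of the lines, whereas in H-Exo against N-Exo mmu-miR-423-5p moves from -0.06 to -0.91 and mmu-miR-320-3p from 0.11 to -0.74.

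The scaling mattered most for comparisons with the dim H-Exo array. The factor that the scaling put between H-Exo and N-Exo was 0.563 by the 75th percentile, 0.717 by the labelling spike-ins and 1.02 by the hybridization spike-ins, which are synthetic RNAs added at those steps. Over the 7 scalings the median log2 difference of all miRNAs ran from -0.50 to 0.34 in H-Exo against N-Exo, from -0.42 to 0.57 for H+G-Exo against H-Exo and from -0.05 to 0.22 in H+G-Exo against N-Exo. mmu-miR-423-5p ran from -0.02 to 0.99 and mmu-miR-320-3p from -0.09 to 0.91 in H+G-Exo against H-Exo. Neither was called under any of them.

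The choice of member as reference changed how another miRNA was read, a calculation added after the values had been seen. mmu-miR-210-3p, the best known miRNA induced by hypoxia, was divided by each member in turn without any scaling. From N-Exo to H-Exo its ratio changed 1.84-fold against mmu-miR-423-5p and 1.63-fold against mmu-miR-320-3p. Against mmu-miR-193b-3p it was 3.43-fold, against mmu-miR-423-3p 1.22-fold and against mmu-miR-193b-5p 0.777-fold. The direction of mmu-miR-210-3p thus turned with 1 of the 5 references, mmu-miR-193b-5p. No floor was applied to these ratios, and the N-Exo signal of mmu-miR-193b-5p lies under it. From H-Exo to H+G-Exo its ratio was under 1 with every one of the 5, from 0.122 with mmu-miR-423-3p to 0.627 with mmu-miR-193b-3p. From N-Exo to H+G-Exo it was 2.15 with mmu-miR-193b-3p and under 1 with the others, from 0.149 with mmu-miR-423-3p to 0.876 with mmu-miR-484. Both signals of mmu-miR-484 in that ratio lie under the floor, so it is a poor divisor.

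Partner arms, neighbours and relatives of the members were read from a list of 8 partners and neighbours, of which 5 were measured. From N-Exo to H-Exo 1 rose and 2 fell, from H-Exo to H+G-Exo none was called, and from N-Exo to H+G-Exo 1 rose and 3 fell. Over all miRNAs, 4.3%, 6.18% and 18.3% were called higher and 10.7%, 26.1% and 26.1% lower in the same order. Nothing is read from counts of so few. mmu-miR-425-5p, the neighbour of miR-191, had scaled signals of 0.415, 0.188 and 0.132 and fell in both comparisons with N-Exo (log2 -1.14 and -1.65). mmu-miR-193a-3p, with the same seed as mmu-miR-193b-3p, had 0.974, 0.335 and 0.183 and fell by 1.54 and 2.41 in log2. Both fell under all 7 scalings. Outside this list, mmu-miR-6921-5p has the seed of mmu-miR-423-5p, and its log2 differences of 0.45 ± 0.19 (H-Exo against N-Exo), 0.13 ± 0.19 (H+G-Exo against H-Exo) and 0.59 ± 0.16 (H+G-Exo against N-Exo) were not called.

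The neighbour hairpin of miR-193b, whose arms carry different names and are not among the hairpins counted above, also had arms that moved apart. mmu-miR-365-1-5p had scaled signals of 0.104 for N-Exo, 0.215 for H-Exo and 0.319 for H+G-Exo, and rose against N-Exo by 1.05 (H-Exo) and 1.62 (H+G-Exo) in log2. mmu-miR-365-3p had 0.363, 0.266 and 0.143 and fell in H+G-Exo against N-Exo (-1.34), so that these arms too were called in opposite directions there, 2.96 apart. mmu-miR-365-3p is also made by Mir365-2, so its level is not that of the neighbour alone. mmu-miR-365-2-5p shares the seed of mmu-miR-365-1-5p, and each had a range of 1.62 in log2 over the arrays. Whether the probes of mmu-miR-365-1-5p also read mmu-miR-365-2-5p was not tested. The rise of mmu-miR-365-1-5p in H-Exo was called under 1 of 7 scalings. Its difference for H+G-Exo against H-Exo, 0.57, was called under 3 of the 7, up to 1.56. mmu-miR-425-3p, mmu-miR-193a-5p and mmu-miR-320-5p were not measured.

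Other miRNAs used as circulating references were taken from a list of 18, of which 16 were measured. From N-Exo to H-Exo 10 fell and none rose, with a median log2 difference of -1.15. From H-Exo to H+G-Exo 11 fell, with a median of -1.05, and from N-Exo to H+G-Exo 15 fell, with a median of -2.43. Over all miRNAs, 10.7%, 26.1% and 26.1% were called lower and 4.3%, 6.18% and 18.3% higher in the same order of comparisons. None of the 16 rose under any of the 7 scalings, where the number of them that fell ran from 9 to 15, from 0 to 11 and from 12 to 15. Over all miRNAs the number called lower then ran from 62 to 136, from 7 to 148 and from 119 to 158. mmu-miR-16-5p, the most used of the 16, had scaled signals of 6.63, 2.86 and 1.59, and mmu-miR-103-3p had 4.13, 2.01 and 0.555. Their ranges over the arrays went from 2.07-fold (mmu-miR-92a-3p) to 12.3-fold (mmu-miR-26a-5p), with a median of 5.40-fold. mmu-miR-423-5p and mmu-miR-320-3p thus lay below the narrowest range of these 16, under the scaling used here. With no scaling the order turned for mmu-miR-92a-3p. Its range was then 1.70-fold, against 1.88-fold for mmu-miR-320-3p and 1.99-fold for mmu-miR-423-5p.

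The miRNAs whose pattern over both steps (H-Exo minus N-Exo and H+G-Exo minus H-Exo) lay nearest to each member were found among 557 candidates, by the distance between the pairs of log2 differences. They were mmu-miR-6360 (0.146) and mmu-miR-6934-5p (0.187) for mmu-miR-423-3p, and mmu-miR-3057-5p (0.0898) and mmu-miR-7045-3p (0.105) for mmu-miR-423-5p. For mmu-miR-320-3p they were mmu-miR-290b-3p (0.0291) and mmu-miR-6937-3p (0.0388). For mmu-miR-193b-3p they were mmu-miR-155-5p (0.0874) and mmu-miR-132-3p (0.0881), and for mmu-miR-193b-5p mmu-miR-3154 (0.103) and mmu-miR-3082-5p (0.140). With 3 arrays, nearness in this pattern is a description.

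The labelled cell type was checked on miRNAs known from it. Of 8 miRNAs abundant in mesenchymal stroma, 8 were detected for N-Exo, 7 for H-Exo and 8 for H+G-Exo, and their summed scaled signal was 293, 127 and 50.4. Of 4 red cell miRNAs on the array, mmu-miR-451a was detected on all 3 and mmu-miR-486a-5p in H+G-Exo, with a summed scaled signal of 0.153, 0.197 and 0.111. Of 4 miRNAs of white cells and platelets, mmu-miR-223-3p was detected on each array, at 0.0784, 0.0946 and 0.0615. mmu-miR-192-5p and mmu-miR-194-5p, of 4 liver miRNAs, were detected in N-Exo alone (0.148), and mmu-miR-122-5p was not detected. None of 2 endothelial and 5 epithelial miRNAs was detected. The part of the lower mesenchymal sum in the members' values was not tested, and fewer vesicles, less RNA in each and another vesicle mix cannot be told apart here.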

How the data were processed

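miRNAs were measured with Agilent 1-colour arrays, 1 for each of 3 treatments taken from the labels' treatment field. The deposited intensity values (processed, mean and background signal, and total per miRNA) were written, per the file headers, by Agilent Feature Extraction 10.7.1.1 (version per the submitters' processing notes), with probe positions on mm9. The labels' protocols name cDNA and cRNA kits, so the labelling of these arrays is uncertain. The deposited log2 value table was used as an alternative. Its columns share a maximum, its medians were -3.32 (N-Exo), -3.00 (H-Exo) and -3.30 (H+G-Exo), and how it was normalized is not stated in the labels.

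Outlier and control spots were left out. Spots were averaged per probe and divided by the 75th percentile over probes detected on all arrays, with detection, floor, brightest probe and 2-fold rule as stated above. limma 3.58.1 (R 4.3.3) gave the normexp alternative, with an offset of 50 intensity units added to every spot. pandas 2.3.3 and numpy 2.4.6 (Python 3.11.15) gave the rest, quantile normalization included. The calling was checked on simulated data with changes well over the 2-fold threshold and no spread between cultures. That check does not cover calls near the threshold or the floor. The 7 scalings were the 75th percentile over detected or over all probes, the median, quantile normalization, none, and labelling or hybridization spike-ins. Named miRNAs were the members, listed partners, seed sharers, the 2 nearest patterns per member and up to 4 other references. Members and lists were chosen with earlier results of these data known. Columns from other series numbered 0.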

Additional observations from a re-analysis of the deposited data

How the results depend on the processing

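Counts of members, arm differences and spreads stayed within the limits set in 135 values under an alternative and moved in 22. Dividing an array by another factor cannot move an arm difference or a spread, apart from values at the floor. Many of the 135 were therefore fixed beforehand, and the tally is no measure of robustness. A count can stay at 1 with another member behind it: for H-Exo against N-Exo, 2 of the 14 alternatives called mmu-miR-193b-5p alone (higher), 8 called mmu-miR-193b-3p alone (lower), 3 called both and 1 neither. Of the members' own log2 differences, 131 stayed, 53 moved, 12 passed the threshold newly and 9 lost their call. None of the 63 values for a called difference had the other sign, but 33 of 142 for differences not called did, among them mmu-miR-423-3p (0.53 to -0.32), mmu-miR-320-3p (0.11 to -0.74) and mmu-miR-193b-3p (-0.43 to 0.57). In H-Exo against N-Exo the count of members called, 1, became 2 with the median scaling, with the mean of the probes and with a 1.5-fold threshold, and 0 with normexp. For H+G-Exo against H-Exo the count of 1 became 2 with no scaling and with hybridization spike-ins. The difference between the arms of miR-423 moved to 0.30 with the software total in H-Exo against N-Exo. Between H-Exo and H+G-Exo it moved to 2.23 with quantile normalization, 1.02 with normexp and 1.10 with the software total, and between N-Exo and H+G-Exo to 1.51 with normexp, 1.39 with the software total and 2.72 with the deposited value table. With normexp the difference between the arms of miR-193b moved to -1.03 in H-Exo against N-Exo, -0.13 between H-Exo and H+G-Exo and -1.15 between N-Exo and H+G-Exo. The spread of the members moved in H-Exo against N-Exo to 1.19 with normexp and 1.49 where every spot had to be well above background, between H-Exo and H+G-Exo to 1.42 with normexp and 1.46 with the software total, and between N-Exo and H+G-Exo to 2.60 and 2.69 with the same alternatives. With normexp, the 50 intensity units added to every spot by themselves make log2 differences smaller. How much of these shifts comes from that addition or from anything else was not tested.

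Where every spot had to be well above background, mmu-miR-193b-5p was not measured in N-Exo, and its arm difference has no value there. No paired analysis was possible because each group holds 1 array. Leaving out an array was not run for the same reason, and the slide as a block was not run because all arrays lie on 1 slide. Signal over background limits mmu-miR-484, mmu-miR-191-5p and, in N-Exo, mmu-miR-193b-5p.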
